A study of Mus musculus with 6 samples.

Results

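Serpins are a family of proteins most of which block proteases. A serpin presents an exposed loop as bait, the protease cuts it, and the serpin snaps into a new shape that traps the enzyme. The mouse family is named by clade letters: clade A holds secreted plasma proteins such as the antitrypsins, clade B holds proteins that mostly stay inside the cell and guard it against its own or incoming proteases, and the other letters hold smaller groups that act in clotting, complement, collagen folding and the nervous system. In stratified and basal epithelia several clade B members are known as epithelial genes, and some serpins have lost the inhibitory function altogether.

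The serpins were taken as every probe set whose platform gene symbol starts with Serpin, which gave 59 of the 45101 probe sets on the array. They were compared in cells of the olfactory epithelium of CD1 mice, a wild-type outbred stock, sorted by flow cytometry with an antibody against ICAM1 (CD54), an adhesion protein carried by horizontal basal cells, the quiescent stem cells of this epithelium, and by blood vessel and immune cells as well. Both sorts came from each of 3 litters, taken at postnatal days 21, 22 and 24, with 1 array per sort and litter, and age cannot be told apart from litter. The labels name no transgene and no treatment. The ICAM1-negative sort is the remainder of the dissociated tissue and not a single cell type.

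The array medians lay between 87.9 and 102.8 intensity units. Icam1, the sorted antigen, read 13, 16.1 and 33.2 in ICAM1-negative and 7246.5, 6817.2 and 6857.1 in ICAM1-positive cells, which follows the sample titles and goes against the free-text descriptions, which name the opposite sort. All 8 marker genes of horizontal basal cells measured were higher in ICAM1-positive cells, with a summed intensity of 691.1 to 1096 against 90568.3 to 94100.8. Macrophage markers rose as well, 12 of 13, with sums of 992.2 to 1203.1 against 12322.3 to 16936.6, and the 7 markers of mature olfactory neurons measured fell, with sums of 73036.9 to 89026.7 against 4545.2 to 9861. Of other markers, 4 of 7 sustentacular, 5 of 9 Bowman gland and 2 of 9 fibroblast genes rose, 7 of 8 immature neuron, 7 of 8 ciliated cell, 2 of 8 neutrophil, 2 of 8 mast cell and 1 of 7 T and NK cell genes fell, and 0 of 9 endothelial genes passed in either direction by limma, also at an unadjusted p below 0.05. Over all genes tested 20.6% were higher and 20.8% lower. The fibroblast count is near the former share, and the neutrophil, mast cell and T and NK cell counts are near the latter. No marker was listed at 0. The sorts are bulk samples, so fewer cells of a type and less RNA per cell cannot be told apart.

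Of the 59 serpin probe sets, 56 named a single gene and 3 were listed under several close paralogs. The 56 covered 40 genes. A filter on low values (log2 intensity over 4 in 3 or more of the 6 arrays) kept 41 probe sets and left 18 out, whose values ran from 0.4 to 50.7. After it 28 genes were tested, each by its probe set with the highest mean, and 12 were not. In the limma fit with Benjamini-Hochberg adjustment over all probe sets kept, 14 serpin genes were higher in ICAM1-positive cells and 4 lower (adjusted p below 0.05), and 10 did not pass. That is 35% and 10% of the 40 genes, of which 12 were not tested. Over all 16399 genes tested, 20.6% were higher and 20.8% lower. These shares leave out untested genes, so their like among serpins is 14 and 4 of the 28 tested. As probe sets, 20 serpins were higher and 6 lower, beside 16.9% and 18% of the 38694 probe sets tested. A gene seen in only one sort passes the filter because of that sort, so the share of tested serpins that differed is a description. The median log2 difference, ICAM1-positive minus ICAM1-negative, was 1.12 over the 28 serpin genes and -0.06 over all 16399 genes.

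By clade, most genes that rose were in clade B: of its 18 genes 12 were tested, 10 were higher and 0 lower (limma; also 0 at an unadjusted p below 0.05), with a median difference of 2.53 on the log2 scale. In clade A, 8 of 14 genes were tested, 3 were higher and 2 lower, with a median of 0.45. The single gene of clade H was higher, the single gene of clade G was lower, and of the 2 genes of clade I 1 was lower. The genes of clades C, D and F, 4 in all, did not pass. Clade E genes were not analysed here.

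**Figure D1:**
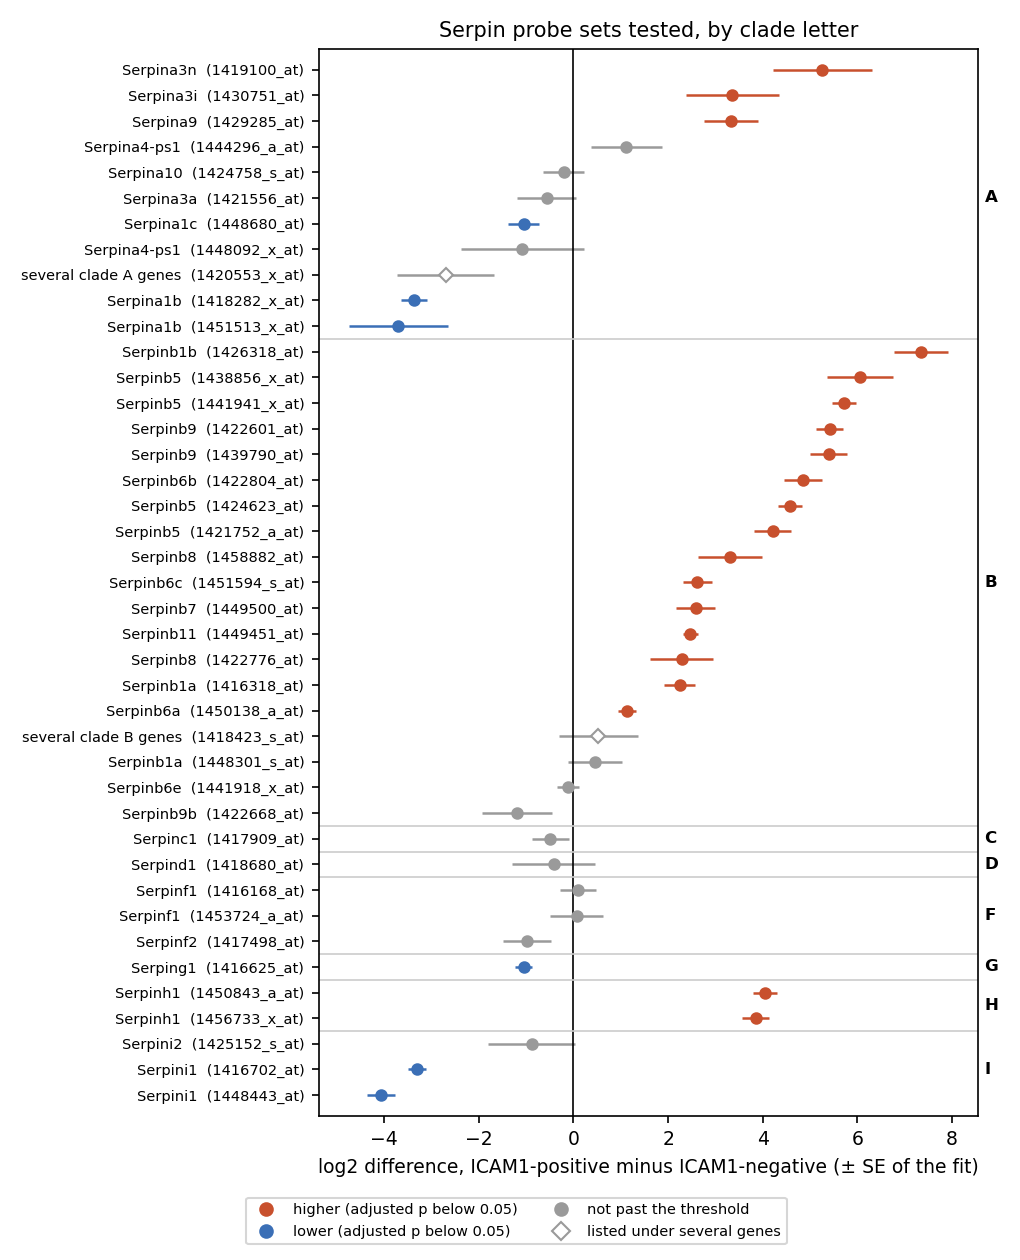
Log2 difference (ICAM1-positive minus ICAM1-negative, ± standard error of the fit) of each of the 41 serpin probe sets tested, grouped by clade letter, with 3 arrays per sort. Past the threshold, 15 clade B probe sets lie to the right and 0 to the left. To the left lie both tested Serpini1 probe sets, Serping1, both Serpina1b probe sets and Serpina1c.

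Among the clade B genes, Serpinb5, which encodes maspin, a serpin of epithelial cells without inhibitory action on proteases, was near background in ICAM1-negative cells. It read 9.6, 35.9 and 61.5 there and 1569.7, 2454 and 1622.7 in ICAM1-positive cells. Every ICAM1-positive array was far above every ICAM1-negative one, and the difference was at least 19.1-fold (log2 difference 6.06 ± 0.69, adjusted p = 0.00137). Here and below, a fold is given as "at least" where all 3 arrays of the dimmer sort lay below their array median: these were raised to that median, since no detection calls were used. All 4 Serpinb5 probe sets were higher, by 4.21 ± 0.39 to 6.06 ± 0.69 on the log2 scale, and the bound ran from 6.53-fold to 19.1-fold.

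Serpinb1b, a close paralog of the gene for the leukocyte elastase inhibitor, was also near background in ICAM1-negative cells. It read 4.4, 16.1 and 18.9 in ICAM1-negative and 1788.7, 2077.8 and 1540.4 in ICAM1-positive cells. The sorts did not overlap, and the difference was at least 18.5-fold (log2 difference 7.34 ± 0.58, adjusted p = 0.000408). Its paralog Serpinb1a, which encodes the elastase inhibitor itself, read 90.1, 168.3 and 125.4 against 469.5, 807.5 and 534.9, a log2 difference of 2.25 ± 0.32 (adjusted p = 0.00331). The sorts were apart on this probe set, with 1 ICAM1-negative array below its median. A second Serpinb1a probe set, 1448301_s_at, whose suffix marks a design shared by several transcripts, read 44, 67.3 and 48.2 against 63.5, 163 and 35.3, overlapped between the sorts and did not pass (0.45 ± 0.57, adjusted p = 0.589).

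Serpinb9, which encodes an inhibitor of granzyme B, the protease that cytotoxic lymphocytes inject into target cells, read 88, 45 and 68.3 in ICAM1-negative and 3054.6, 2324.6 and 2951.5 in ICAM1-positive cells. All ICAM1-positive arrays were high, and the difference was at least 28.6-fold (log2 difference 5.41 ± 0.29, adjusted p = 0.000176). The second Serpinb9 probe set gave 5.39 ± 0.39. The other Serpinb9 paralogs did not follow it. Serpinb9b read 39.3, 47.4 and 37.2 against 56.9, 7.1 and 14.3, with overlapping sorts (-1.19 ± 0.74, adjusted p = 0.273). Serpinb9c, Serpinb9d and Serpinb9g were below the filter, and probe set 1418423_s_at, shared by 4 paralogs of this clade, read 4.4 to 25.8 over the 6 arrays and did not pass (0.53 ± 0.84, adjusted p = 0.674).

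The Serpinb6 paralogs split by size. Serpinb6a, an intracellular inhibitor found in many tissues, was already high in ICAM1-negative cells, at 2395, 2794.2 and 2879.3, and read 5121.4, 6450.7 and 6133.9 in ICAM1-positive cells. The sorts did not overlap, and the log2 difference was 1.13 ± 0.18 (adjusted p = 0.00518; 0.0625 without litter 3). Serpinb6b read 34.5, 74.6 and 30.5 against 1007.2, 1568.6 and 1198.3, at least 12.8-fold higher (4.85 ± 0.39, adjusted p = 0.000447). For Serpinb6c, whose probe set is of the shared-transcript design, the values were 33.5, 18.5 and 29.4 against 147, 213.1 and 133.9, at least 1.67-fold higher (2.62 ± 0.31, adjusted p = 0.00158). Serpinb6e did not pass, with overlapping values of 235.2, 385.7 and 283.2 against 244.9, 273.5 and 301.6 (-0.12 ± 0.24, adjusted p = 0.751).

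Serpinb11 had a measurable level in both sorts. It read 533.2, 532.8 and 565.2 in ICAM1-negative and 2732.3, 3248.6 and 3072 in ICAM1-positive cells, with little spread within either, and the log2 difference was 2.47 ± 0.16 (adjusted p = 0.000264). Serpinb7, a serpin of skin and other epithelia, read 107.9, 134.7 and 219.3 against 534.8, 1088.1 and 1183.1, lowest in litter 1 in both sorts but without overlap (2.58 ± 0.42, adjusted p = 0.00499; 0.0675 without litter 2). Serpinb8, which encodes an inhibitor of the proprotein convertase furin, read 8.6, 41.6 and 40.5 against 104.4, 161.1 and 99.6 and so lay near the array median even where it was higher (2.28 ± 0.66, adjusted p = 0.0416). This call was lost without litter 2 (0.126) or 3 (0.11), without any 1 ICAM1-positive array (0.0855 to 0.111), without ICAM1-negative array 3 (0.0521) and with values under the array median set to that median (0.323). The second Serpinb8 probe set read 24.6, 4.4 and 13.8 against 167.6, 71.6 and 120.7 and passed (3.31 ± 0.68, adjusted p = 0.0129). On it 1 ICAM1-positive array lay below its median. Serpinb2, Serpinb3a and Serpinb12 were below the filter.

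**Figure D2:**
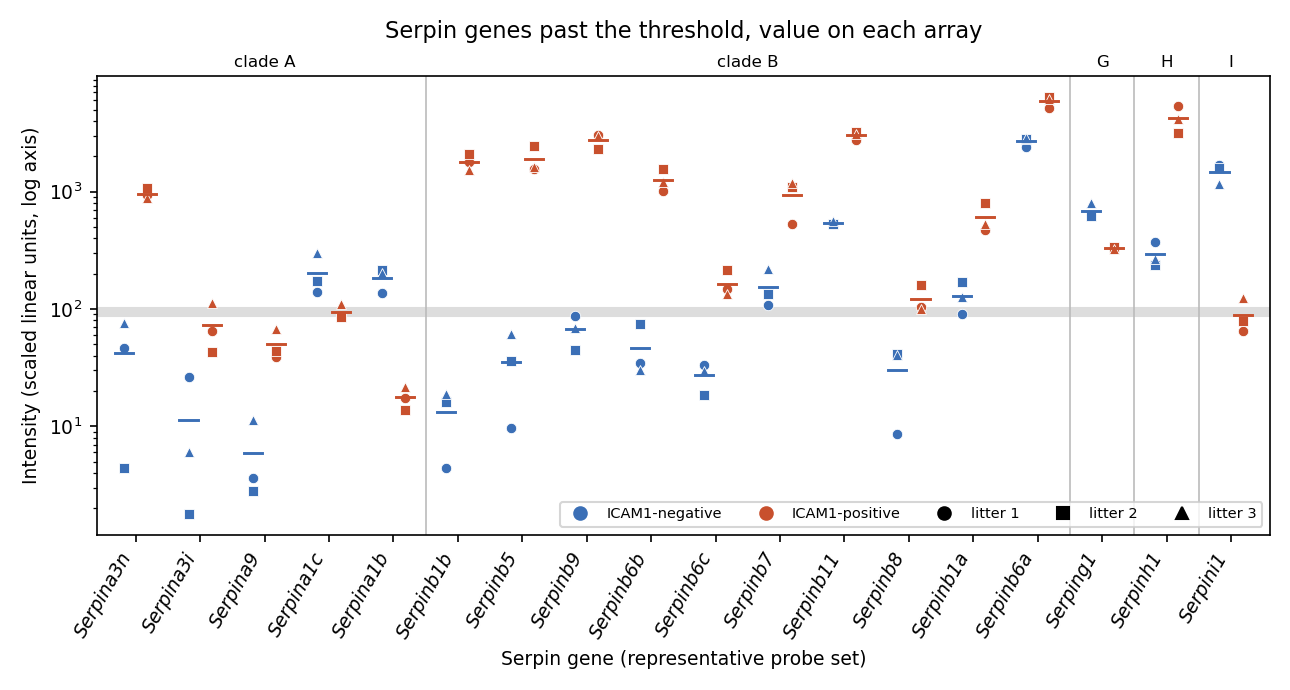
Intensity (linear units on a log axis) of the 18 serpin genes past the threshold on each of the 6 arrays, with the litter as symbol, the mean of 3 arrays as a bar and the range of array medians, 87.9 to 102.8, as a grey band. Clade B genes are higher in ICAM1-positive cells. For Serpinb6a, Serpinb7 and Serpinb11 every ICAM1-negative array also lies above the band. Levels of different probe sets are not comparable.

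In the mouse genome the clade B genes lie in separate clusters on different chromosomes. In the cluster that starts with Serpinb5, the genes past the threshold were Serpinb5, Serpinb11, Serpinb7 and Serpinb8, and the genes below the filter, Serpinb12, Serpinb3a and Serpinb2, lie between them. In the cluster with Serpinb9, the 6 genes that rose were Serpinb1a, Serpinb6b, Serpinb9, Serpinb1b, Serpinb6c and Serpinb6a. The neighbours did not all move together: Serpinb9b, between Serpinb9 and Serpinb1b, and Serpinb6e, next to Serpinb6c, did not pass.

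**Figure D3:**
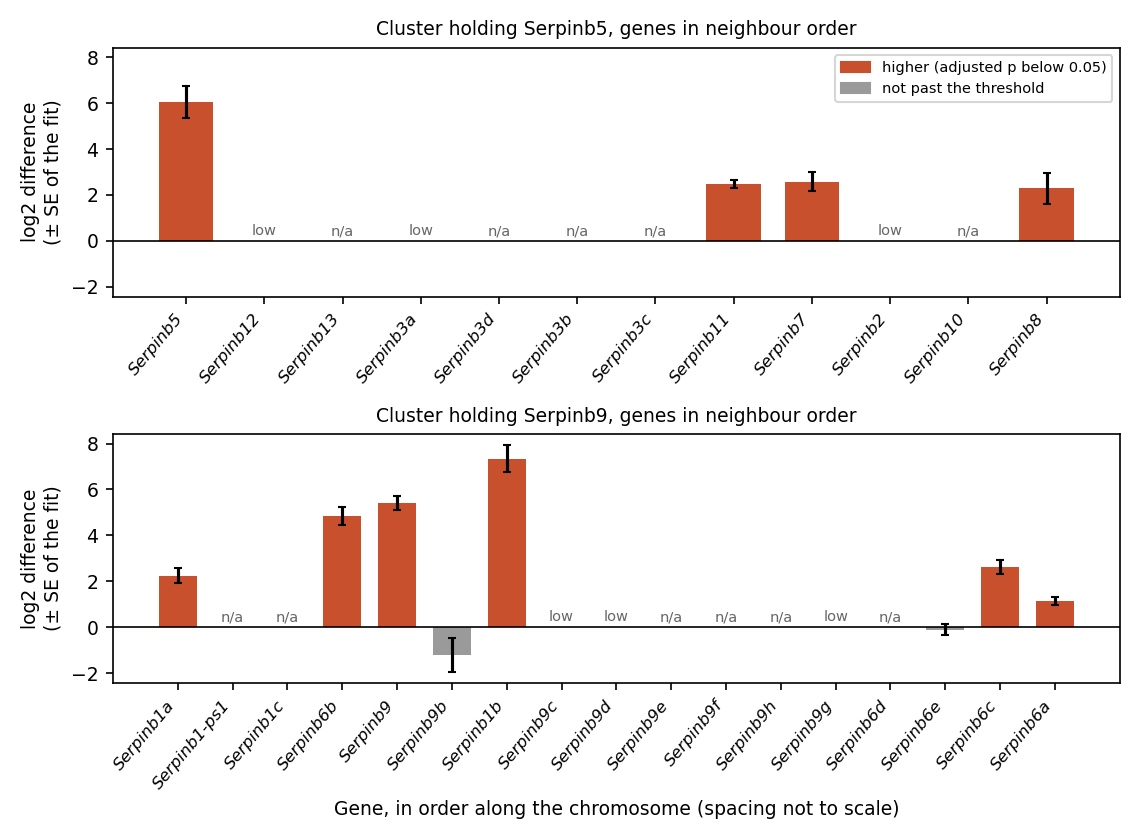
Log2 difference (± standard error of the fit, 3 arrays per sort) of the clade B genes in neighbour order in each cluster, not to scale; "low" marks genes below the filter and "n/a" genes not analysed here. Bars up to 7.34 stand beside genes below the filter in both clusters.

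The promoters of the genes that rose in the Serpinb5 cluster are shown because these 4 moved together and each held a match to TGANTCA. The match lay within 250 bases before the RefSeq start. With any base allowed at N, this pattern is looser than TGA(C/G)TCA, the usual element of AP-1 transcription factors. The matches shown read TGAATCA in Serpinb5 and Serpinb11 and TGAGTCA in Serpinb7 and Serpinb8. The 150 bases before the start follow, 5′ to 3′ on the gene's strand (build GRCm38.p6, + strand), with the TGANTCA match in capitals. They lie at chr1:106861025-106861174 for Serpinb5, chr1:107362164-107362313 for Serpinb11, chr1:107422539-107422688 for Serpinb7 and chr1:107589856-107590005 for Serpinb8.
Serpinb5: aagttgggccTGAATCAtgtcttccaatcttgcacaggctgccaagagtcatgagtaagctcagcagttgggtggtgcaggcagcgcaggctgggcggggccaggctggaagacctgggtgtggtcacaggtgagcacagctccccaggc
Serpinb11: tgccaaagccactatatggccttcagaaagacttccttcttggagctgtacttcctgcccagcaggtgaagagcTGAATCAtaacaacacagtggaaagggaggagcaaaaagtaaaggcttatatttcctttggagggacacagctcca
Serpinb7: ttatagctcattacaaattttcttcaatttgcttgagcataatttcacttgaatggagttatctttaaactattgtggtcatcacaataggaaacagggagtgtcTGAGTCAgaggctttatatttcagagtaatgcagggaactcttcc
Serpinb8: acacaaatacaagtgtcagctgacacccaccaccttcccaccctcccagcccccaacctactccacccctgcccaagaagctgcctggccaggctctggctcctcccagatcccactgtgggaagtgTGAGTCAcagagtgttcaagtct
Serpinb11 held a second match 181 to 175 bases before its start, outside the stretch shown. Of all 32851 RefSeq promoters of the same length, 6.75% held TGANTCA on either strand. Among serpins with a single-gene probe set and a promoter in the table, it was found in 2 of the 3 genes of this cluster that were below the filter (Serpinb2 and Serpinb12), in 0 of 5 genes that rose and 0 of 5 that did not in the Serpinb9 cluster, and in 2 of 6 genes past the threshold outside clade B (Serpina1b and Serpina1c, which fell), beside 0 of 11 other genes outside clade B. Of 15 genes past the threshold with a promoter in the table, 1 held TATAAA (Serpinb7, on the strand opposite to the gene, 33 to 28 and 239 to 234 bases before the start; 12.4% of all promoters), 1 TTCNNGAA (Serpinb6a; 7.17%), 1 GAANNTTC (Serpinb5; 6.69%) and 0 the NF-kB element (0.356%). The motifs do not overlap in these stretches, both strands were read, and a match is a description of the letters only.

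In clade A the largest rise was that of Serpina3n. The gene, which encodes a secreted inhibitor of leukocyte proteases known as an acute-phase and injury-induced gene, read 46.3, 4.4 and 76 in ICAM1-negative and 934.1, 1065.8 and 882.5 in ICAM1-positive cells. The ICAM1-positive arrays were close to one another and the negative ones all below their median, so Serpina3n was at least 9.92-fold higher (5.26 ± 1.05, adjusted p = 0.0115; 0.0724 without litter 1). The log2 difference fell to 3.94 without litter 2, whose ICAM1-negative value of 4.4 was the lowest. Its neighbour paralog Serpina3i read 26.3, 1.8 and 6.1 against 65.1, 42.9 and 112 (3.36 ± 0.99, adjusted p = 0.0438). Serpina9, known from germinal centre B cells, read 3.6, 2.8 and 11.3 against 39.2, 44 and 67.6 (3.33 ± 0.57, adjusted p = 0.00612). For Serpina9 every array lay below its median and for Serpina3i only 1 ICAM1-positive array lay above it, so no fold is given, and both calls were lost once values under the median were set to it (adjusted p = 0.996 for each). Serpina3i also missed the threshold without litter 2 (0.102) or 3 (0.233), without ICAM1-negative array 2 (0.0736) or 3 (0.109), and without any 1 ICAM1-positive array (0.0721 to 0.121). Serpina9 missed it without litter 1 (0.0615) or 2 (0.0578).

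The antitrypsin genes went the other way. Serpina1b, a copy of the gene for the plasma inhibitor of neutrophil elastase, read 135.7, 213.4 and 201.3 in ICAM1-negative and 17.5, 13.8 and 21.7 in ICAM1-positive cells. The sorts did not overlap, and it was at least 1.87-fold lower (log2 difference -3.37 ± 0.27, adjusted p = 0.000444). A second Serpina1b probe set read 111.4, 220 and 274.8 against 2.8, 40.4 and 26.9 (-3.70 ± 1.05, adjusted p = 0.0384). Serpina1c read 140.9, 172.9 and 299.5 against 86.8, 85.5 and 109.5 (-1.06 ± 0.32, adjusted p = 0.0484). This last call was lost without litter 1 (0.112), 2 (0.18) or 3 (0.102), without any 1 ICAM1-positive array (0.0817 to 0.124), and without ICAM1-negative array 2 (0.0864) or 3 (0.0712).

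Serpina1 genes are near-identical copies, and the probe sets cannot be assigned to 1 of them. Serpina1b and Serpina1c, counted above as 2 lower genes, may therefore not be separate. The Serpina1c probe set, 1448680_at, has no suffix that marks shared probes. Both Serpina1b probe sets carry the suffix x, which marks probes that may bind other sequences, and the 2 probe sets listed under several clade A genes carry it too. Of these, 1420553_x_at read 16.8, 16.8 and 16.1 against 13, 0.7 and 1.8 and did not pass (-2.71 ± 1.03, adjusted p = 0.094), and 1449321_x_at, at 0.6 to 23 over the 6 arrays, was below the filter. In all, 10 serpin probe sets carried the suffix x, 5 the suffix s and 5 the suffix a, the last for alternative transcripts of a gene. Of the 9 genes with 2 or more kept probe sets, 8 had them in 1 direction, the exception being the pseudogene Serpina4-ps1 (1.12 ± 0.75 and -1.08 ± 1.31, neither past the threshold).

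The other tested genes of clade A, Serpina10 and Serpina3a, did not pass and lay below the array median on all 6 arrays. Serpina5, Serpina6, Serpina7, Serpina11, Serpina12 and Serpina1f were below the filter. These include genes of the liver and plasma, such as those for the binding proteins of cortisol (Serpina6) and thyroxine (Serpina7).

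Serpinh1, the only member of clade H, is not a protease inhibitor but a chaperone of the endoplasmic reticulum that binds folded procollagen. It read 372.2, 237.7 and 266.3 in ICAM1-negative and 5370.7, 3187.7 and 4166.3 in ICAM1-positive cells, above the array median in both. Litter 2 was lowest in both sorts, with no overlap between them, and the log2 difference was 3.85 ± 0.28 (adjusted p = 0.000336). The second Serpinh1 probe set gave 241.9, 194.6 and 198 against 4450.6, 2553.3 and 3739.6 (4.05 ± 0.26, adjusted p = 0.000243).

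Other genes of procollagen modification and folding were also higher. Of 12 measured, 8 rose and 0 fell (limma; also 0 lower at an unadjusted p below 0.05), with a median difference of 1.45 on the log2 scale beside -0.06 over all genes. Without litter 3, 5 rose. Crtap, a subunit of the prolyl 3-hydroxylase complex, rose from 132.4, 74.4 and 133.7 to 1090, 812.6 and 960.3 (3.11 ± 0.29, adjusted p = 0.000688), Plod2, a lysyl hydroxylase of collagen, by 2.15 ± 0.20 and the prolyl hydroxylase P3h3 by at least 2.37-fold. Ppib, a folding isomerase of the same complex, read 6978.9, 11850.2 and 8668.7 against 7888.7, 11835.5 and 7798.1, with overlapping sorts (0.01 ± 0.29, adjusted p = 0.987). Fibroblasts are a known source of these transcripts. Of 9 fibroblast markers 2 rose, near the 20.6% of all genes that were higher. Their summed intensity was 1718.1 to 3842.3 in ICAM1-negative and 3822.1 to 6029.2 in ICAM1-positive cells. Dcn read 851.9, 720.6 and 1149.2 against 2636, 3316.9 and 4450.8 and Fbln1 264.1, 164.5 and 178.4 against 808.5, 660.6 and 912.6, both higher. The median over the 9 markers was -0.27. Col1a2 read 2264.7, 1170.8 and 210.6 in ICAM1-negative and 148.2, 289.4 and 398.4 in ICAM1-positive cells. Col1a1 read 212.3, 329.9 and 27.9 against 20.4, 69.7 and 47.4, and Col3a1 42.1, 134.6 and 3.8 against 15, 34.5 and 23.6. For all of these the sorts overlapped, and none passed (limma adjusted p = 0.217, 0.273 and 0.894). In ICAM1-positive cells Col1a2 lay above the array median, and Col1a1 and Col3a1 lay below it. The part of fibroblasts in the Serpinh1 value was not tested.

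Serpini1 had the largest fall among serpin representative probe sets. It encodes neuroserpin, a secreted inhibitor of tissue plasminogen activator made by neurons. It read 1677.7, 1577.7 and 1156.7 in ICAM1-negative and 65.4, 79.4 and 124.4 in ICAM1-positive cells, a log2 difference of -4.07 ± 0.30 (adjusted p = 0.000352), or -3.81 when values under the array median were set to it. The sorts were far apart, and 2 ICAM1-positive arrays lay below their median. The second tested probe set gave 952.3, 752.9 and 932.2 against 79.6, 98.4 and 88.4 (-3.30 ± 0.19, adjusted p = 0.000189), and the remaining one was below the filter. Mature neuron markers fell in the same arrays, all 7 measured with a median of -3.76, as did 7 of 8 immature neuron markers with a median of -3.71; the part of the neuronal share in the Serpini1 value was not tested. Serpini2, a serpin of the pancreas, did not pass (-0.89 ± 0.92, adjusted p = 0.508).

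Serping1, which encodes the inhibitor of the complement proteases C1r and C1s, fell as well. It read 634.7, 623 and 804.3 in ICAM1-negative and 324.9, 335.9 and 325.1 in ICAM1-positive cells, with very similar ICAM1-positive arrays and no overlap. The log2 difference was -1.05 ± 0.18 (adjusted p = 0.00612; 0.0687 without litter 1 and 0.0723 without litter 3). The genes for these 2 proteases were higher. C1ra read 4.2, 7.1 and 5 against 187.9, 119.2 and 78.8, at least 1.25-fold higher (4.51 ± 0.38, adjusted p = 0.000493). C1s1 read 8.3, 19.9 and 29.2 against 878.3, 667.4 and 810.9, at least 8.09-fold higher (5.53 ± 0.48, adjusted p = 0.000524). Other proteases of clotting and complement did not all follow: of 16 such genes measured, 5 were higher and 4 lower. Klkb1, plasma kallikrein, was at least 3.08-fold lower. Masp1 and Masp2 did not pass (limma adjusted p = 0.214 and 0.4475).

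The serpins of clotting and fibrinolysis in clades C, D and F were low. Serpinc1 (antithrombin), Serpind1 (heparin cofactor) and Serpinf2 (antiplasmin) read at most 126.9 on any array, and their differences of -0.49 ± 0.38, -0.42 ± 0.88 and -0.99 ± 0.51 did not pass (adjusted p = 0.381, 0.754 and 0.191). Serpinf1, which encodes the secreted factor PEDF, known to act on neurons, vessels and stem cells, read 103, 125.4 and 49.5 against 78.2, 91.3 and 108.5, overlapped and did not pass (0.09 ± 0.38, adjusted p = 0.88).

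The proteases that serpins act on, and their other partners, were examined by lists of genes. Over all genes tested the median was -0.06, 20.6% were higher and 20.8% lower, and each list's counts stand beside these shares. In the plasminogen system 4 of 7 genes measured rose and 0 fell (limma; also 0 at an unadjusted p below 0.05), with a median of 1.43. Plat, the tissue plasminogen activator that neuroserpin inhibits, read 428.9, 658.3 and 461.6 in ICAM1-negative and 2069.4, 2784.7 and 2238.9 in ICAM1-positive cells (2.21 ± 0.24, adjusted p = 0.00116). Plat was thus higher in the sort in which Serpini1 was lower. The plasminogen-binding pair Anxa2 and S100a10 rose by 4.27 ± 0.19 and 5.34 ± 0.47.

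Among 18 epithelial and secreted serine protease genes, 8 were higher and 1 lower (median 1.22), and 4 were higher without litter 3. Prss23 rose from 21.5, 141.8 and 48.8 to 6676.2, 8289.9 and 6983.3 (7.10 ± 0.67, adjusted p = 0.000696). Htra1, a secreted protease, and Hpn, a membrane-anchored protease, rose by at least 12.4-fold and 8.63-fold. Tmprss4, another membrane-anchored protease, was the one that fell, by at least 3.33-fold (-3.52 ± 0.44, adjusted p = 0.00187).

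Among 13 lysosomal cathepsin genes, 7 were higher and 1 lower (median 1.83). Ctss, a cathepsin of antigen-presenting cells, rose by 4.65 ± 0.20, Ctsh by 3.81 ± 0.21, and Ctsl, which is widely expressed, rose from 2930, 2962.5 and 2703.2 to 18519.5, 17535.8 and 18424.1 (2.66 ± 0.15, adjusted p = 0.000195). Ctsa fell by 0.76 (adjusted p = 0.0131), a call lost without litter 1 (0.103), 2 (0.0603) or 3 (0.133) or ICAM1-positive array 3 (0.0538), and with its probe sets averaged (0.209). With litter as a paired block 2 cathepsin genes were lower. Macrophage markers rose in the same arrays, 12 of 13 with a median of 3.49, as they did beside the rise of Serpinb9, Serpinb1a and Serpinb6a, which leukocytes are also known to express. Their part in these differences was not tested.

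The granule proteases of leukocytes, the classic targets of several clade A and B serpins, were mostly near or below the array median. Of 10 measured, 7 lay below it on all 6 arrays, 1 rose and 2 fell, with a median of 0.22. Gzma, a granzyme of lymphocytes, read 181.4, 200.2 and 158.3 against 29.1, 38.5 and 46.2, at least 1.86-fold lower (-2.27 ± 0.23, adjusted p = 0.000937), and Prtn3, a neutrophil protease, read 339.9, 375.2 and 327.9 against 60.9, 59 and 117.3 (-2.21 ± 0.31, adjusted p = 0.0029). Gzmm, another granzyme, read 72.6, 134.6 and 142.3 against 160.7, 162.1 and 176.9 and did not pass (0.58 ± 0.30, adjusted p = 0.194). Gzmc, the one higher, lay at 2.1 to 36.9 over the 6 arrays. Its call was lost with values under the median set to it (adjusted p = 0.996), without litter 1 (0.156) or 3 (0.0521), without ICAM1-negative array 1 (0.0655) or ICAM1-positive array 1 (0.0666) or 2 (0.063), and with a trended variance prior (0.0531). Gzmb, the target of the Serpinb9 protein, read 35.9, 43 and 18.2 against 28, 10.5 and 17.9, with overlapping sorts (-0.81 ± 0.48, adjusted p = 0.254).

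Among 16 clotting and complement genes, 5 were higher and 4 lower (median 0.34), beside 20.6% and 20.8% of all genes; 2 fell without litter 3, with values under the median set to it, 2 rose and 2 fell. F3, tissue factor, the cell surface cofactor that starts clotting, rose from 114.6, 119.4 and 158.5 to 10133.6, 11617.9 and 9438.1 (6.32 ± 0.21, adjusted p = 0.000124). Klkb1, plasma kallikrein, was at least 3.08-fold lower, and Proc, protein C, fell with both sorts below the array median, a call lost when values under the median were set to it (adjusted p = 0.996).

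Of the inhibitors of other families, 19 were measured, and the share that rose was near that of all genes (20.6%): 4 rose and 0 fell (limma; also 0 at an unadjusted p below 0.05), with a median of 0.59, and 2 rose without litter 1 and 1 without litter 3, when 1 fell. Cst3, the cysteine protease inhibitor cystatin C, rose from 1561.5, 1492.3 and 2006.2 to 9711, 8010.1 and 11276 (2.52 ± 0.22, adjusted p = 0.000539). Cstb and Wfdc2 rose by 1.09 ± 0.18 and 2.42 ± 0.39; both calls were lost without litter 1 (adjusted p = 0.0648 and 0.0548) or litter 3 (0.0538 and 0.0547). Spint2, a Kunitz-type inhibitor of membrane-anchored proteases, read 8669.6, 8329.8 and 10241.5 against 8940, 9680.3 and 10329.5, overlapped and did not pass (0.09 ± 0.17, adjusted p = 0.73).

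Among receptors and cofactors of secreted serpins, 6 of 12 rose and 0 fell (limma; 2 were lower at an unadjusted p below 0.05), with a median of 0.61. With any 1 litter or array left out, 4 to 5 rose. Sdc1, a heparan sulfate proteoglycan, rose from 84.3, 140.1 and 92.5 to 8657.8, 9573.7 and 7568.1 (6.38 ± 0.25, adjusted p = 0.000132), and Sdc4 by 2.34 ± 0.24. Lrp1, the endocytic receptor that clears complexes of serpins with proteases, rose from 87.8, 60.1 and 98.8 to 1200.5, 816.3 and 1079.7 (3.66 ± 0.27, adjusted p = 0.00034).

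**Figure D4:**
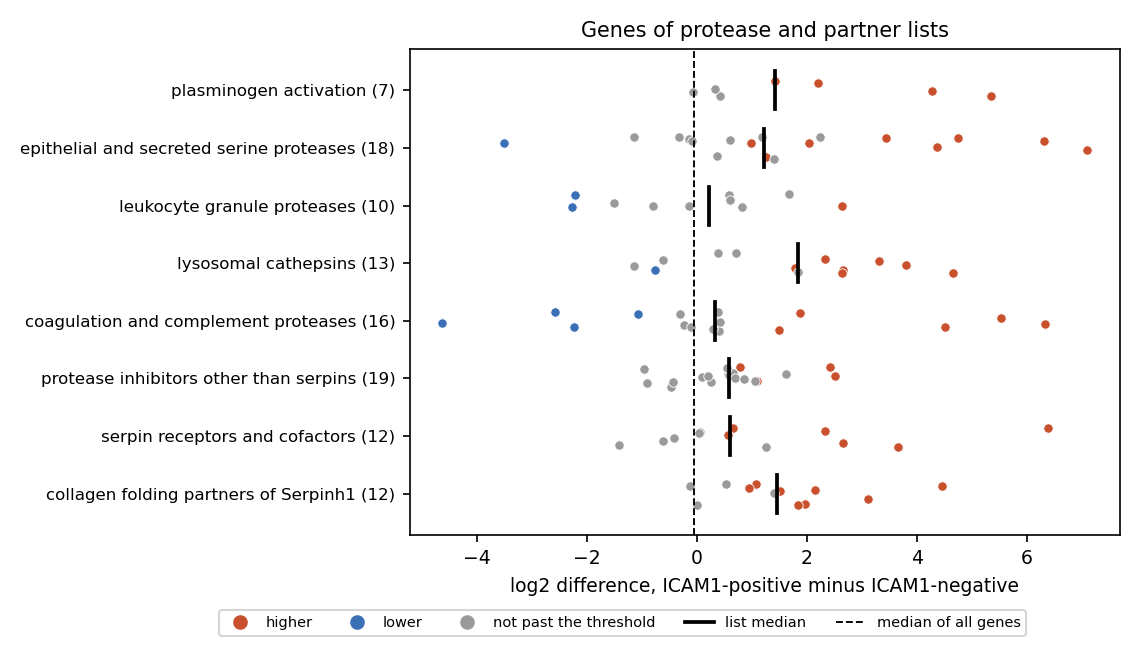
Log2 difference (ICAM1-positive minus ICAM1-negative) of each measured gene in 8 lists of proteases, inhibitors and partners, with the number measured in brackets, the list median as a bar and the median of all genes, -0.06, as a dashed line. List medians run from 0.22 for leukocyte granule proteases to 1.83 for cathepsins.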

How the data were processed

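TRIzol-purified RNA went through 2 amplification rounds before hybridisation to Affymetrix mouse arrays, per the series text. The authors deposited linear intensities. The submitters' processing notes name GCRMA, but the deposited intensity values have a mean of 500 on every array after trimming 2% from each end, the form of globally scaled signals, so they were taken as such; which program and background correction made them is not given in the sources used here. Depth does not apply to arrays, and their number, 3 per sort from separate litters, limits the precision.

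Groups came from the sample titles. Intensities were transformed to log2, 64 control probe sets were left out, and 38694 passed the filter. Differences were tested two-sided with limma 3.58.1 (R 4.3.3; lmFit and eBayes) over all probe sets kept, with Benjamini-Hochberg adjustment, and errors are standard errors of the fit. The fit was checked on simulated data. Names came from the platform table. Promoter sequences are from RefSeq (GRCm38.p6) and were found for 15 of the 18 genes past the threshold; the motifs and the promoters printed were chosen after the data were seen.

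The replicate number marks a shared litter per the series text, so it pairs the sorts; deviations from the sort means correlated at 0.127, 0.199 and 0.081 within litters 1, 2 and 3. The main fit has no block for litter. The members, lists (markers of 12 cell types and 8 lists of proteases, inhibitors and partners) and bounds were chosen with earlier results of these data known. Serpin genes past the threshold with at least a 2-fold difference, or with a mean above 1000, are given by array, and up to 3 genes with the smallest adjusted p from each list, with any gene opposing the majority where at most 2 do; other genes were named after their values were seen.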

Additional observations from a re-analysis of the deposited data

How the results depend on the processing

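Normalization by quantiles or array medians, filters, low intensities raised to the array median, a pseudocount of 16, a trended variance prior, averaged probe sets, a block for litter, and leaving out each litter or array were tried. Over these, 10 to 15 serpin genes were higher and 2 to 4 lower, and 16 to 21 probe sets were higher and 3 to 7 lower. When a litter was left out, 2 serpin genes were lower without litter 1 or litter 3, and 3 probe sets without litter 3. With litter as a replicate block 14 serpin genes were higher and 4 lower, as in the fit without it, and 20 and 7 probe sets; the block changed no other call among the serpin genes named. With low intensities raised, Serpina9 and Gzmc turned to -8e-04 (adjusted p = 0.996 for each), since every array lay at or below its median. Serpina1c lost its call with quantile normalization (adjusted p = 0.0618), array medians (0.064) or no filter (0.0642), as did Serpina3i (0.0564) and Serpinb8 (0.0539) with no filter. The signs and calls of Serpinb1b, Serpinb5, Serpinb6b, Serpinb6c, Serpinb9, Serpinb11, Serpinb1a, Serpinh1, Serpini1 and Serpina1b held in each of 18 alternatives. Counts over the list of serpin receptors reached 2 lower with low intensities raised, and those of cathepsins 10 higher and 3 lower at most. Scaling moved the median of all probe sets from -0.06 to -0.07 at most. Intensities near the array median limit the size of most rises.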
